A study of Mus musculus with 4 samples.

Results

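The genes of DNA replication and DNA repair were examined in leukaemic mouse bone marrow for H3K9ac, the acetylated form of lysine 9 on histone H3 that marks active promoters, by ChIP-seq after a lysis of erythrocytes. They were taken by their symbols: subunits of the origin recognition complex, the MCM helicase, GINS, the replicative and translesion polymerases, the sliding clamp and its loader, RPA, the DNA ligases, ribonucleotide reductase, the checkpoint kinases, and the BRCA, RAD, Fanconi anaemia, XRCC, ERCC, mismatch repair and PARP families. The rule found 99 of the 9615 genes in the deposited table, on 19 chromosomes. Mcm3 and Chek2 were not analysed here. The study has 4 samples, 1 H3K9ac and 1 rabbit IgG library for each of 2 genotypes, and the IgG libraries were not analysed here. All mice carried floxed alleles of Gfi1b, a repressor of transcription in blood cell development, and the Nup98 transgene (a NUP98-HOXD13 fusion), which gives mice myelodysplasia and leukaemia. The first genotype, called tg, also carried the Mx-Cre transgene. The second, called WT by the submitters, lacked Mx-Cre, was otherwise of the same genotype and is no wild type. Mx-Cre is driven by an interferon-inducible promoter, is not restricted to 1 blood lineage, and is used to delete floxed alleles. The labels give neither the age of the mice, nor an inducing agent, nor how many animals a library came from. The H3K9ac at Gfi1b, 7.00 in tg and 3.17 in WT as deposited log2 values, is no check of the deletion, since the positions of its probes are not given. With 1 H3K9ac library per genotype no difference has a replicate check, no test between genotypes exists, and "higher" and "lower" describe these libraries only.

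Before a cell can copy its genome, the origin recognition complex and CDT1 load the MCM helicase onto DNA in G1. In S phase GINS activates the helicase, the polymerases follow with PCNA and its loader RFC, RPA covers single-stranded DNA and ligase I joins the fragments of the lagging strand. The checkpoint kinases ATR and ATM slow the cycle when forks stall or DNA breaks, and separate repair routes deal with mismatches, bulky lesions, crosslinks and breaks. Many of these genes are known targets of E2F transcription factors. Leukaemic and erythroid precursor cells divide often and use these genes heavily.

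The promoters of 5 chosen genes are shown for the motifs they hold. Lig1, Pold1, Atm and Polk, whose ratios were larger than those of Rpa2 and Rrm2, are not shown. Neither are Rad9b and Xrcc6, whose ratios were larger than that of Rpa2. The 5 promoters therefore do not stand for the motifs of all genes higher or lower in tg. Pola1, Rpa2 and Rrm2 had higher H3K9ac in tg, Parp8 had the largest difference in the other direction, and Orc6 was well covered and nearly equal. Each sequence runs 5′ to 3′ on the strand of the gene, from 250 bases before to 50 after a start of transcription in RefSeq (GRCm38.p6). Capitals mark motifs on either strand. They are CCAAT, the GATA core, spelled AGATAA or else TGATAA, and the E2F core, spelled TTCCCGC or as the variants TTCGCGC, otherwise TTGCCGC, and finally TTGGCGC. An E2F core and CCAAT can overlap.
Pola1, chrX:93632106-93632405, minus strand: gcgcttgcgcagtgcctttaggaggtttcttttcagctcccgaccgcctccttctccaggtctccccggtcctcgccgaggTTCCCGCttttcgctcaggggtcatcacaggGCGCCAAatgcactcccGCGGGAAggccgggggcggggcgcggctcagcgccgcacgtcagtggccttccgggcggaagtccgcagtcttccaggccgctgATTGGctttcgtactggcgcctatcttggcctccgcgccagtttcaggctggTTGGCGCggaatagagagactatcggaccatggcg
Rpa2, chr4:132768110-132768409, plus strand: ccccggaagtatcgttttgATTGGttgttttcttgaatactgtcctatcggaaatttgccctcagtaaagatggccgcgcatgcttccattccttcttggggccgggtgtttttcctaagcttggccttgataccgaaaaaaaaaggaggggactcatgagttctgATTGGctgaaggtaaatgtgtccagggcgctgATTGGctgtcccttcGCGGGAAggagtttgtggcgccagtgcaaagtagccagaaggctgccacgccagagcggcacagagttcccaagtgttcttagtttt
Rrm2, chr12:24708004-24708303, plus strand: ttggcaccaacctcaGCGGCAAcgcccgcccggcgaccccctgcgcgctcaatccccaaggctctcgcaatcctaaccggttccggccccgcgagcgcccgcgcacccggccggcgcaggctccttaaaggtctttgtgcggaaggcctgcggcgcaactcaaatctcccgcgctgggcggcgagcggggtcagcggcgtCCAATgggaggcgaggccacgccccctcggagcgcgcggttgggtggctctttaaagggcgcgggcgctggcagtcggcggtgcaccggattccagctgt
Parp8, chr13:117025482-117025781, minus strand: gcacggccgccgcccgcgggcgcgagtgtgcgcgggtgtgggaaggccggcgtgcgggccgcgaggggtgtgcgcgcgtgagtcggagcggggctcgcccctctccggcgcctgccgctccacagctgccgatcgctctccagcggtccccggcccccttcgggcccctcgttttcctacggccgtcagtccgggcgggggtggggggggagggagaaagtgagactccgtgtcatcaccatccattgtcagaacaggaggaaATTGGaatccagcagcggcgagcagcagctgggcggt
Orc6, chr8:85299382-85299681, plus strand: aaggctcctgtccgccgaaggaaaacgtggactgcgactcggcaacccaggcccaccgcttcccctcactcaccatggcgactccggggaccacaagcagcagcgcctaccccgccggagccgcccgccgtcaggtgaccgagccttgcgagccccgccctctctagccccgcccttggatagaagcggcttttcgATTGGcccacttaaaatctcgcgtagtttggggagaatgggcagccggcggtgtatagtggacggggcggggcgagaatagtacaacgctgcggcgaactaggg

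The Pola1 window held 4 E2F cores and 1 CCAAT, the Rpa2 window 1 and 3, and the Rrm2 window 1 and 1. The Parp8 and Orc6 windows held 0 E2F cores and 1 CCAAT each, and none of the 5 windows held a GATA core. RefSeq promoters were matched for 77 of the 99 genes (93 windows). An E2F core lay in 49.5% of these windows, against 17.7% of the windows of all genes in the table and 9.57% of all windows of the sequence table. CCAAT lay in 51.6%, against 37.7% and 37.4%, and a GATA core in 6.45%, against 10.1% and 18.6%. The windows of the replication and repair genes had a median of 25 CpG dinucleotides, against 21 for all genes in the table. A match is a description of letters, and the deposited table gives no probe positions, so no read can be assigned to these windows. Among the 41 genes with an E2F core in a window the median log2 ratio of tg over WT was 0.43, and among the 36 without it was 0.24. The medians were 0.41 in 43 genes with CCAAT and 0.25 in 34 without, and -0.23 in 5 genes with a GATA core and 0.34 in 72 without. At least 2-fold higher in tg were 9 of the 41 genes with an E2F core and 5 of the 36 without. For CCAAT the counts were 9 of 43 and 5 of 34, and for the GATA core 0 of 5 and 14 of 72. Of all genes 16.5% passed this rule. None of these gaps was tested.

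The deposited values rest on few reads. They are log2 of scaled reads averaged over a gene's probes, and whole reads could be worked out from them. A difference of 1 read is worth 6.11 in tg and 3.23 in WT, which corresponds to totals of 163712 reads in tg and 309649 in WT. The recovered reads of all genes in the table sum to 100% (tg) and 102% (WT) of these totals. So the totals need not be the depth of the libraries, which is not given. The median replication or repair gene rested on 14 reads in tg and 21 in WT, and 84 of the 99 genes had a single probe. The fewest reads of any 1-probe gene in the table, summed over tg and WT, were 9. A 1-probe gene with few reads in WT is therefore present only where its tg reads are higher, and the reverse holds for few tg reads. The ratios and intervals of genes near this minimum, such as Pola1, Pold1, Atm and Rad9b, are thus partly set by it. Reads are given below as counted; because the WT total is 1.89 times that of tg, equal H3K9ac appears as about 1.89 times more reads in WT. Ratios are tg over WT after scaling, with exact 95% intervals that cover counting error only, and the log2 ratio is the difference of the deposited values. Levels are not compared between genes, since the length of the probes is not given.

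Summed over the group, the reads of the replication and repair genes were nearly even in both libraries. All 99 together held 1494 reads in tg and 2623 in WT, a ratio of 1.08, against 0.98 for all genes with recovered reads. This sum joins unlike parts: the ratio was 0.564 for the 9 PARP family members other than Parp1 and Parp2, and 1.19 for the other 90 genes. The median log2 ratio was 0.26, against 0.045 for all genes in the table, and the SD over genes was 1.02 against 1.27. At least 2-fold higher in tg were 15 genes (15.2%), where 16.5% of all genes passed the same rule. At least 2-fold lower were 7 genes (7.07%), where 15.8% of all genes passed it. The share with higher H3K9ac was thus close to that of all genes, while the share with lower H3K9ac was smaller. By the read ratios, the interval lay above 1 for 14 genes, or 14.1% against 12.8% of all 9492 genes with recovered reads. It lay below 1 for 6 genes, or 6.06% against 12.7%. For the other 79 genes the interval included 1. Across the 99 genes the levels of the libraries had a Spearman coefficient of 0.67, against 0.57 across all genes; genes of 1 library share its depth and are not replicates.

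**Figure D1:**
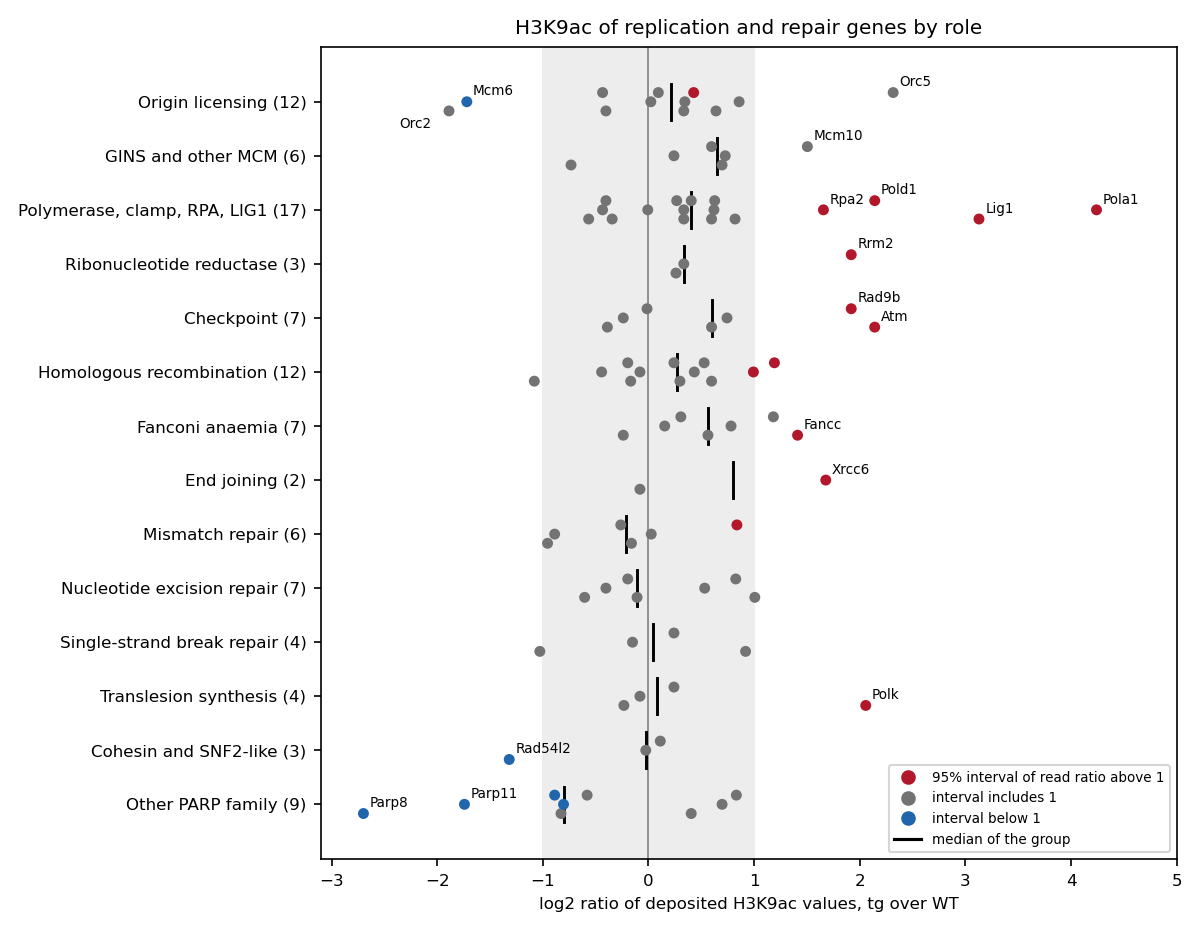
Each point is 1 of the 99 genes, placed by its deposited log2 ratio of tg over WT (horizontal axis) in the row of its role, with the number of genes in brackets; small vertical offsets only separate points. Grey shading spans less than 2-fold, black bars are group medians, and colour gives whether the 95% interval of the read ratio lies above 1 (red, 14 genes), below 1 (blue, 6 genes) or includes 1. The row of polymerases, clamp, RPA and ligase I, the one with the most genes, holds 4 of the 14 red points, and the row of the PARP family holds 4 of the 6 blue points.

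Marker genes of cell types also differed between the libraries. Of 11 erythroid markers in the table, 10 had at least a 2-fold higher value in tg and 0 a lower one, and their reads summed to 2639 scaled reads in tg and 507 in WT. Alas2, Rhag and Epor had 0 reads in WT, which allows up to 9.69 scaled reads each. All 4 granulocytic markers were at least 2-fold lower in tg (42.8 scaled reads in tg and 275 in WT), and their direction was shared by 3 of 5 monocyte markers (434 scaled reads in tg and 2057 in WT over all 5). The other monocyte markers were Csf1r, past 2-fold higher with 9 reads in tg and 4 in WT (4.26, 1.19 to 18.9), and Cx3cr1, with 19 reads in tg and 25 in WT (1.44, 0.748 to 2.72). Of 13 interferon-stimulated genes 8 were at least 2-fold lower and 0 higher (971 scaled reads in tg and 2131 in WT over 12 genes). The B cell, T and NK cell and megakaryocyte lists had 2, 1 and 1 genes in the table, all within 2-fold. The Y-linked genes Uty and Ddx3y had 0 and 1 reads in tg and 28 and 22 in WT. The libraries thus also differ in Y-linked reads, and a difference in the sex of the mice cannot be told apart from that of genotype. In whole marrow, more cells of a type and more acetylation per cell cannot be told apart. The part of these shifts in the results below was not tested.

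The largest log2 ratios towards tg were those of Pola1 and Lig1, genes that synthesise and seal DNA at the fork. Outside this role Orc5, Atm and Polk had log2 ratios of 2.32, 2.14 and 2.06, beside 2.14 for Pold1. Of 17 genes for polymerase subunits, PCNA, its loader, RPA and ligase I, 4 reached 2-fold higher values in tg and 0 were lower to that extent. Of all genes 16.5% were higher and 15.8% lower by these rules. The median log2 ratio of the 17 genes was 0.41. Their reads summed to 237 in tg and 304 in WT, a ratio of 1.47. Pola1, the catalytic subunit of the polymerase that starts each new strand (chromosome X, 93304767 to 93632155, GRCm38), had 10 reads in tg and 1 in WT. Its ratio of 18.9 is loosely bounded, with an interval of 2.69 to 821, and is partly set by the minimum of 9 summed reads. Pola1 is X-linked, and the 215 X-linked genes in the table had a median log2 ratio of -0.24 with 38 genes at least 2-fold higher and 52 lower. Ercc6l, the other X-linked gene of the set, which encodes a helicase-like protein of mitotic chromosomes, had 8 reads in tg and 14 in WT (ratio 1.08, 0.393 to 2.76).

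Lig1, which encodes the ligase of the lagging strand (chromosome 7, 13277283 to 13311433), had 18 reads in tg and 4 in WT over 2 probes, a ratio of 8.51 (2.80 to 34.6). Its probes held 7 and 11 reads in tg and 0 and 4 in WT. The minimum of 9 summed reads was found for 1-probe genes, and whether a like minimum bears on these probes was not tested. The counts 7 in tg and 4 in WT are also those of the single probe of the neighbouring gene 6330408A02Rik, so all WT reads of Lig1 may lie at a shared site. Rpa2, a subunit of the single-strand binding protein (chromosome 4, 132768332 to 132778752), had 25 reads in tg and 15 in WT, a ratio of 3.15 (1.60 to 6.43). Pold1, the catalytic subunit of polymerase delta (chromosome 7, 44532746 to 44548849), had 7 reads in tg and 3 in WT, and its interval only just excluded 1 (4.41, 1.01 to 26.4).

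The partners of these subunits were nearer to equality. Rpa1 had 13 reads in tg and 16 in WT (ratio 1.54, 0.680 to 3.41) and Rpa3 had 32 in tg and 46 in WT (1.32, 0.811 to 2.11). Pcna, the sliding clamp, had 15 reads in tg and 19 in WT over 2 probes (1.49, 0.706 to 3.10). Pold3 and Pold4, accessory subunits of polymerase delta, had 10 and 14 reads in tg and 24 and 21 in WT, and both intervals include 1. Pole, the catalytic subunit of the leading-strand polymerase, was thinly covered, with 4 reads in tg and 6 in WT, and its accessory subunits Pole3 (14 reads in tg and 15 in WT) and Pole4 (9 in tg and 23 in WT) both had intervals that include 1. All 5 genes of the clamp loader were within 2-fold, from Rfc1 (5 reads in tg and 14 in WT, log2 ratio -0.57) to Rfc5 (24 in tg and 30 in WT, log2 ratio 0.60). Rfc4 was the most equal of these genes among those with at least 20 reads in each library, with 21 in tg and 33 in WT (1.20, 0.662 to 2.14).

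Ribonucleotide reductase makes the DNA precursors, and 1 of its 3 genes was at least 2-fold higher in tg, as were 16.5% of all genes. Rrm2, the small subunit that is produced in S phase (chromosome 12, 24708241 to 24714146), had 18 reads in tg and 9 in WT, a ratio of 3.78 (1.61 to 9.56). Rrm1, the large subunit, had 22 reads in tg and 33 in WT (1.26, 0.700 to 2.23), and Rrm2b, the small subunit induced by p53, had 19 in tg and 30 in WT (1.20, 0.637 to 2.20). The interval of Rrm2 overlaps those of the other two, and the difference between the subunits was not tested.

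**Figure D2:**
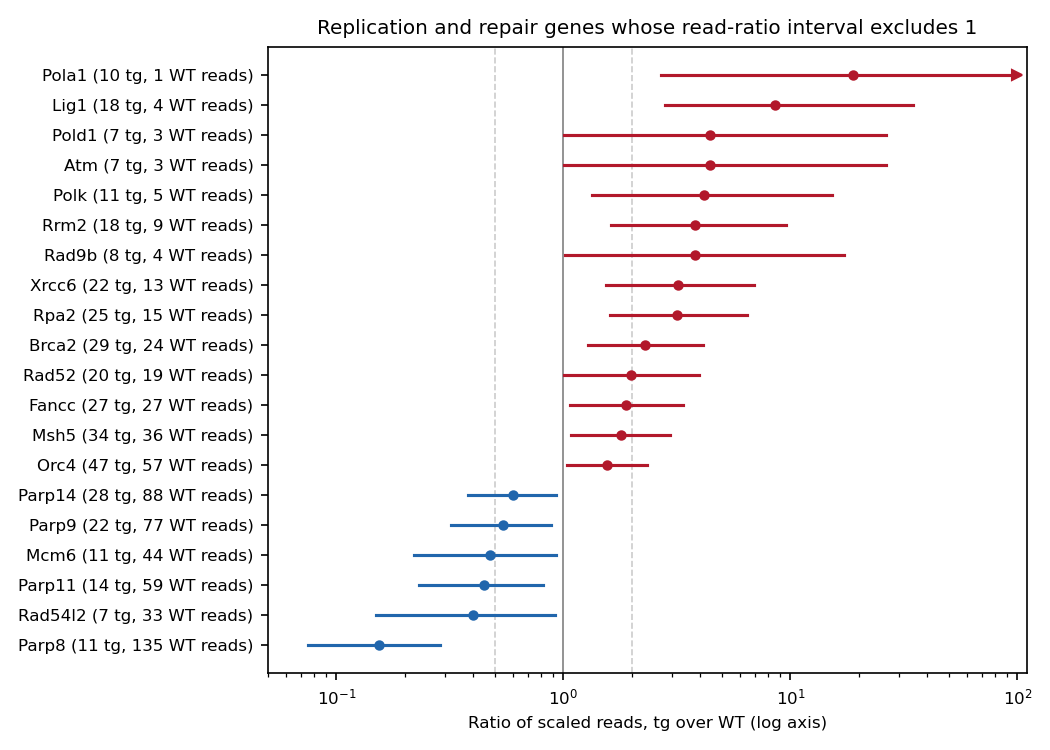
Ratio of scaled reads, tg over WT, on a log axis with exact 95% intervals for the 20 replication and repair genes whose interval excludes 1; read counts stand beside each name, dashed lines mark 2-fold, and the arrow marks an interval that runs past the axis. The 14 genes above 1 rest mostly on fewer than 30 reads per library, while Parp8, on 135 WT reads, stands farthest below 1.

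Origin licensing genes mostly kept to equality, and the exceptions went both ways. Of 12 such genes 1 passed 2-fold upwards in tg and 2 downwards (median log2 ratio 0.21), against 16.5% and 15.8% of all genes. Among the subunits of the MCM helicase ring, Mcm2 had 9 reads in tg and 23 in WT (ratio 0.740, 0.301 to 1.66), Mcm4 had 14 in tg and 35 in WT (0.757, 0.376 to 1.44), Mcm5 had 23 in tg and 24 in WT (1.81, 0.978 to 3.35) and Mcm7 had 17 in tg and 29 in WT (1.11, 0.572 to 2.09). None of these 4 left its counting error. Mcm6 did (chromosome 1, 128331591 to 128359656), with 11 reads in tg and 44 in WT, a ratio of 0.473 (0.220 to 0.930). Its probes held 0 and 11 reads in tg and 12 and 32 in WT, and which of them correspond between the libraries is not known. The 5 subunit genes together had 74 reads in tg and 155 in WT, a ratio of 0.903.

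The 6 genes of the origin recognition complex had 140 reads in tg and 203 in WT, a ratio of 1.30. Orc6 was among the 5 genes with the highest mean linear level and was nearly equal, with 29 reads in tg and 54 in WT (1.02, 0.624 to 1.62). Orc4, with 47 reads in tg and 57 in WT over 3 probes, was higher in tg by the read ratio (1.56, 1.04 to 2.34; chromosome 2, 48902824 to 48950277). One probe, with 26 reads in tg and 25 in WT, has the counts of the single probe of its neighbour Mbd5, and without it the interval includes 1 (21 reads in tg and 32 in WT, ratio 1.24, 0.680 to 2.22). Orc1, which varies over the cell cycle, had 16 reads in tg and 24 in WT (1.26, 0.626 to 2.47), and Orc3 had 14 in tg and 17 in WT (1.56, 0.711 to 3.36). Orc5 had the largest log2 ratio of the complex, 2.32, but this rests on 1 low probe. Its probes held 11 and 21 reads in tg and 0 and 37 in WT, and by summed reads its ratio was 1.64 (0.987 to 2.70), which is within 2-fold. Orc2 had 2 reads in tg and 14 in WT, and its interval includes 1 (0.270, 0.0298 to 1.18). Cdt1, the licensing factor, had 22 reads in tg and 39 in WT (1.07, 0.603 to 1.84).

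**Figure D3:**
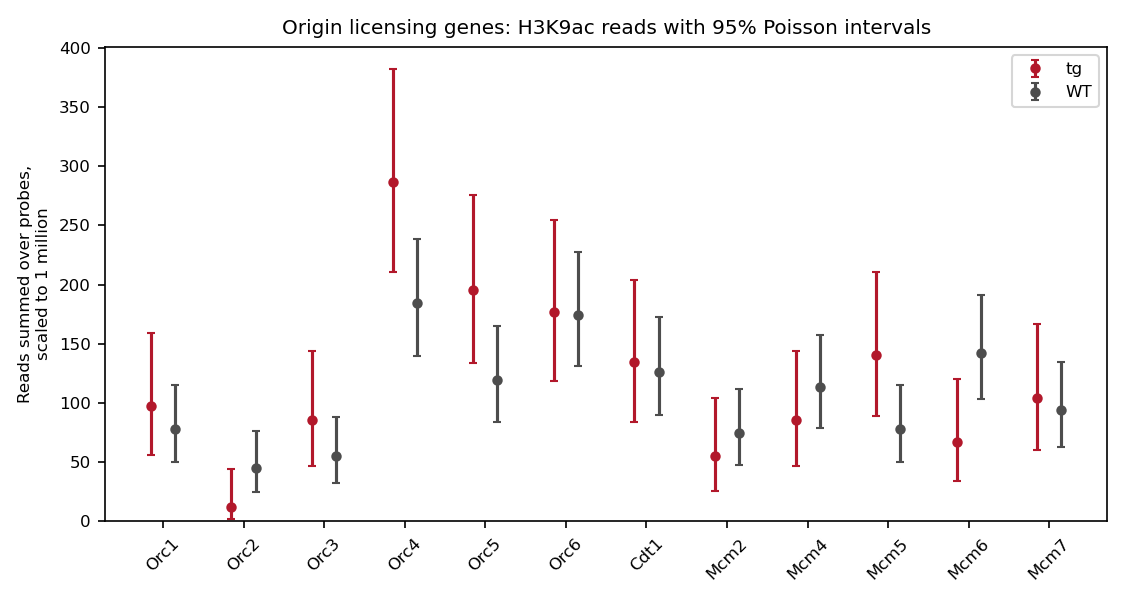
Reads summed over the probes of each origin licensing gene, as scaled reads (vertical axis), with exact 95% Poisson intervals for tg (red, left of each pair) and WT (grey, right). The intervals of tg and WT overlap for 12 of the 12 genes, including Mcm6 and Orc4, whose ratio intervals exclude 1.

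Genes that activate or assist the helicase had 88 reads in tg and 166 in WT, a ratio of 1.00, and 0 of the 6 read-ratio intervals excluded 1. Their median log2 ratio was 0.65, with 5 of 6 above 0, against 51.8% of all genes. Mcm10, an initiation factor, was past 2-fold on 6 reads in tg and 4 in WT (2.84, 0.673 to 13.7). Gins3 had 6 reads in tg and 7 in WT, and Gins4 had 14 in tg and 16 in WT. Mcm8, which acts in recombination, had 8 reads in tg and 10 in WT, and Mcm3ap, which encodes a nuclear mRNA export factor and was found by its name only, had 15 in tg and 24 in WT. Mcm9, the partner of MCM8, had 39 reads in tg and 105 in WT over 2 probes (0.703, 0.473 to 1.02), and its taller probe, 31 reads in tg and 70 in WT, has the counts of the single probe of its neighbour Asf1a.

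Of 7 checkpoint genes 2, Atm and Rad9b, were at least 2-fold higher in tg, as were 16.5% of all genes. Both had fewer than 10 reads in each library. Atm, the kinase activated by double-strand breaks (chromosome 9, 53439149 to 53536740), had 7 reads in tg and 3 in WT, a ratio of 4.41 with an interval that only just excludes 1 (1.01 to 26.4). Atr, the kinase of stalled forks, had 13 reads in tg and 29 in WT (0.848, 0.405 to 1.68), and Chek1, the kinase it activates, had 11 in tg and 21 in WT (0.991, 0.431 to 2.15). The intervals of Atm and Atr overlap. In the clamp that helps ATR, Rad9b had 8 reads in tg and 4 in WT (3.78, 1.01 to 17.2; chromosome 5, 122323223 to 122354233), Rad9, its paralogue, had 4 in tg and 5 in WT (1.51, 0.300 to 7.03), and Rad1 had 21 in tg and 52 in WT (0.764, 0.437 to 1.29). Rad17, which loads this clamp, had 32 reads in tg and 42 in WT over 2 probes (1.44, 0.881 to 2.34), and 1 of them, with 24 in tg and 35 in WT, has the counts of the single probe of Taf9.

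Homologous recombination genes stayed mostly within counting error. Of 12 genes 1 lay past 2-fold in each direction, where 16.5% of all genes were higher and 15.8% lower. The median log2 ratio of the 12 genes was 0.27. Brca2, which acts on resected ends (chromosome 5, 150522630 to 150569746), had 29 reads in tg and 24 in WT, a ratio of 2.29 (1.28 to 4.10). Rad52, an annealing factor, had 20 reads in tg and 19 in WT (1.99, 1.01 to 3.94). The intervals of Pold1, Atm, Rad9b and Rad52 include 1 once the totals are rescaled to a median log2 ratio of 0 over all genes. Brca1, which promotes the resection of ends, had 4 reads in tg and 5 in WT (1.51, 0.300 to 7.03). Rad54b was past 2-fold lower on 3 reads in tg and 12 in WT, with an interval from 0.0856 to 1.75. The remaining members, Rad50, Rad51c, Rad51l1 (now Rad51b), Rad51l3 (now Rad51d), Rad51ap1, Rad54l and Xrcc2, had log2 ratios between -0.44 and 0.53.

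The Fanconi anaemia genes, which act on crosslinks between DNA strands, had 1 of 7 intervals above 1 and 0 below, against 12.8% and 12.7% of all genes with recovered reads. At least 2-fold higher were 2 of the 7 genes and lower 0, against 16.5% and 15.8% of all genes. Of the 7 log2 ratios 6 were above 0, against 51.8% of all genes. Their reads summed to 132 in tg and 181 in WT, a ratio of 1.38. Fancc (chromosome 13, 63304709 to 63497278) had 27 reads in each library over 2 probes, a ratio of 1.89 (1.07 to 3.35). Its probes held 13 and 14 reads in tg and 4 and 23 in WT, and by summed reads it is just within 2-fold. Fancm, a translocase at forks, had 6 reads in tg and 5 in WT (2.27, 0.577 to 9.40). Fancd2 and Fanci, which encode the pair that is ubiquitinated at crosslinks, had 13 reads in tg and 29 in WT (0.848, 0.405 to 1.68) and 24 in tg and 28 in WT (1.62, 0.900 to 2.90). Fancf, the most equal member with at least 20 reads in each library, had 20 in tg and 34 in WT (1.11, 0.607 to 1.99).

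End joining was covered by 2 genes. Xrcc6, which encodes the Ku70 subunit that binds broken ends (chromosome 15, 81987835 to 82040085), had 22 reads in tg and 13 in WT, a ratio of 3.20 (1.54 to 6.92). Pppde2, a neighbour of Xrcc6, has identical values, so the reads may belong to either gene. Lig4, the ligase of this route, had 14 reads in tg and 28 in WT (0.946, 0.460 to 1.86) and shares its values with Abhd13.

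Mismatch and excision repair genes stayed within counting error but for Msh5. All 6 mismatch repair genes were within 2-fold, as were 67.7% of all genes. Msh6, which takes part in recognising mismatches, had 4 reads in tg and 14 in WT (0.540, 0.130 to 1.72). Msh5, whose product is known from meiosis, was higher in tg by the read ratio, with 34 reads in tg and 36 in WT (1.79, 1.08 to 2.94; chromosome 17, 35028605 to 35046745). Of 7 nucleotide excision repair genes 1 was past 2-fold higher, as were 16.5% of all genes, and all 7 intervals include 1. Rad23b, a damage recognition factor, had 26 reads in tg and 53 in WT (0.928, 0.557 to 1.51), and the ERCC genes had log2 ratios between -0.60 and 0.83. In single-strand break repair, Parp1, the main sensor of breaks, had 5 reads in tg and 8 in WT (1.18, 0.304 to 4.10), Parp2 had 10 in tg and 21 in WT (0.901, with an interval that includes 1), Xrcc1, the scaffold, had 6 in tg and 6 in WT (1.89, 0.506 to 7.08), and Lig3 was past 2-fold lower with 7 in tg and 27 in WT (0.490, 0.180 to 1.15).

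Of the translesion genes Polk, a polymerase that copies past bulky adducts (chromosome 13, 96480689 to 96542485), had 11 reads in tg and 5 in WT, a ratio of 4.16 (1.33 to 15.3). Polh and Polq had 5 and 4 reads in tg and 8 and 8 in WT, and Rad18, the ubiquitin ligase that calls these polymerases to PCNA, had 18 in tg and 40 in WT (0.851, 0.459 to 1.52). Among genes that the symbols brought in beside the repair routes, Rad21, a cohesin subunit, was nearly equal, with 40 reads in tg and 77 in WT (0.983, 0.653 to 1.46). Rad54l2, a chromatin remodelling ATPase gene (chromosome 9, 106688082 to 106789213), was lower in tg, with 7 reads in tg and 33 in WT (0.401, 0.150 to 0.922).

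Most of the intervals below 1 among the 99 genes belonged to PARP family members other than Parp1 and Parp2. These enzymes attach ADP-ribose to proteins, most of them as single units, and Parp9, Parp10, Parp11, Parp12 and Parp14 are known as interferon-inducible genes with roles in antiviral defence. Of the 9 genes 2 were at least 2-fold lower and 0 higher, where 15.8% and 16.5% of all genes passed these rules. The median log2 ratio was -0.80, and the reads of the 9 genes summed to 145 in tg and 486 in WT, a ratio of 0.564. For 4 of them the interval lay below 1, as it did for 12.7% of all genes with recovered reads. These are 4 of the 6 such intervals among all 99 genes. Parp8 (chromosome 13, 116854824 to 117025516) had 11 reads in tg and 135 in WT on 1 probe, the most WT reads of the 99 genes, and a ratio of 0.154 (0.0751 to 0.285). Parp11 (chromosome 6, 127446840 to 127494241) had 14 reads in tg and 59 in WT, a ratio of 0.449 (0.231 to 0.814). Its 4 probes held 1, 1, 2 and 10 reads in tg and 8, 10, 16 and 25 in WT, in ascending order within each library.

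Parp9 and Parp14 lie close together on chromosome 16. Parp9 (35938470 to 35972605) had 22 reads in tg and 77 in WT, a ratio of 0.540 (0.320 to 0.877), and has the same values as Dtx3l, whose product binds PARP9. Parp14 (35832874 to 35871544) had 28 reads in tg and 88 in WT over 2 probes, a ratio of 0.602 (0.379 to 0.930). Parp12 had 14 in tg and 47 in WT (0.563, 0.286 to 1.04). Parp10 had 20 in tg and 36 in WT (1.05, 0.576 to 1.86), although its log2 ratio, which weighs its probes alike, was -0.58. Its probes held 2 and 18 reads in tg and 12 and 24 in WT. Parp4, Parp6 and Parp16 had 16, 14 and 6 reads in tg and 17, 20 and 7 in WT, with log2 ratios between 0.40 and 0.83. The interferon-stimulated marker list, which includes Dtx3l, was lower in the same library (8 of 13 genes), as were all 4 granulocytic markers and 3 of 5 monocyte markers, while 1 monocyte marker, Csf1r, was past 2-fold higher. Their part in the values of these PARP genes was not tested. Without these 9 PARP genes, 15 of 90 genes were at least 2-fold higher (16.7%, against 16.5% of all genes) and 5 lower (5.56%, against 15.8%). Of their intervals 14 lay above 1 (15.6%, against 12.8%) and 2 below (2.22%, against 12.7%). The shares with higher H3K9ac thus stayed near those of all genes. The median log2 ratio of the 90 genes was 0.28, and the ratio of their summed reads was 1.19.

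**Figure D4:**
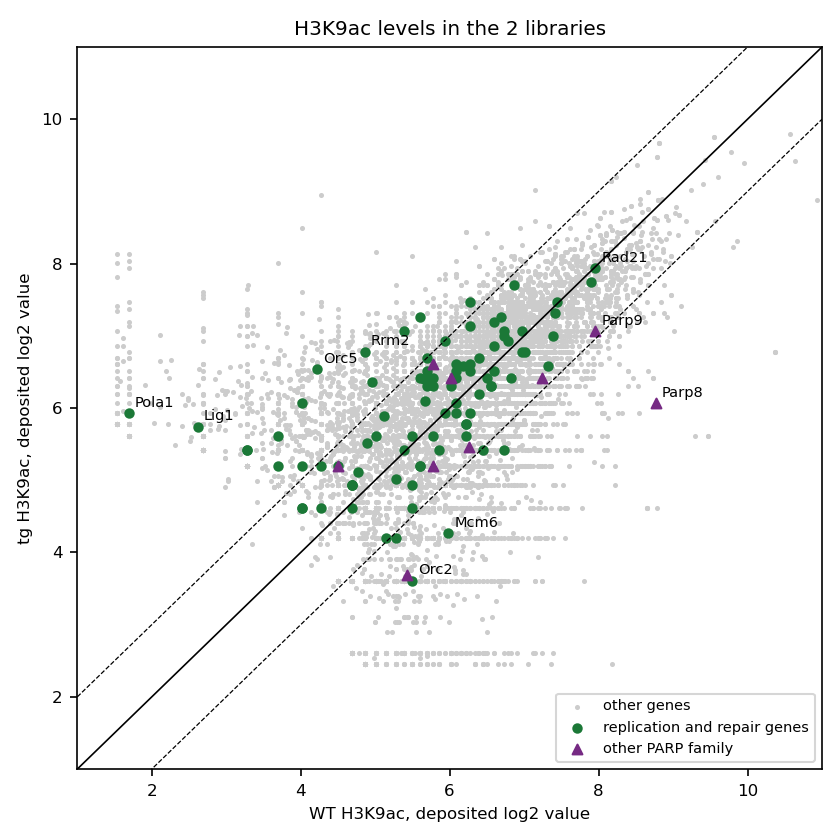
Deposited log2 H3K9ac value of each gene in tg (vertical axis) and WT (horizontal axis): replication and repair genes in green, other PARP family members as purple triangles, all other genes in the table in grey. The solid line marks equality and the dashed lines 2-fold; Pola1 and Lig1 lie far to the left at low WT values, Rad21 lies near the line at high values, and Parp8 lies to the right of the lower dashed line.

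Replication and repair genes outside the symbol rule were also counted, from a list of 82 names of which 72 were in the table. At least 2-fold higher in tg were 14 (19.4%) and lower 6 (8.33%), against 16.5% and 15.8% of all genes, with a median log2 ratio of 0.11. Of the 71 with recovered reads the interval lay above 1 for 8 and below 1 for 5, against 12.8% and 12.7% of all genes. The 8 are thus no larger a share than that of all genes. Both rules were passed by 6 of the higher and 1 of the lower genes. Below 1 without passing 2-fold by the deposited values were Atrip, which encodes the partner of ATR, with 32 reads in tg and 108 in WT (0.560, 0.365 to 0.838), and Mcmbp, whose product binds MCM proteins, with 19 in tg and 86 in WT (0.418, 0.240 to 0.693). The low ratio of Mcmbp rests on 1 probe: its probes held 6 and 13 reads in tg and 3 and 83 in WT. Its deposited log2 ratio, which weighs the probes alike, was 0.08. Also below 1 without passing 2-fold were Mre11a, a nuclease gene of break repair, with 24 reads in tg and 75 in WT (0.605, 0.365 to 0.970), and Top1, a topoisomerase gene, with 44 in tg and 131 in WT (0.635, 0.441 to 0.900). Above 1 in this way were Cdc6, a licensing factor, with 34 reads in tg and 32 in WT (2.01, 1.20 to 3.36), and Parg, which removes ADP-ribose chains, with 31 in tg and 34 in WT (1.72, 1.03 to 2.89). The highest of those past both rules were Rtel1, a helicase of telomeres and recombination, with 14 reads in tg and 5 in WT (5.30, 1.80 to 18.8), and Tk1, the thymidine kinase of S phase, with 44 in tg and 17 in WT (4.90, 2.74 to 9.14). Others act in S phase. Dut, which removes dUTP, had 30 reads in tg and 21 in WT (2.70, 1.50 to 4.97), Tipin, a fork protection factor, had 26 in tg and 21 in WT (2.34, 1.27 to 4.38), and Uhrf1, which couples DNA methylation to replication, had 12 in tg and 8 in WT (2.84, with an interval that starts at 1.07). Rif1, a regulator of replication timing and break repair, had 18 in tg and 16 in WT (2.13, 1.02 to 4.46). Smc5, of the SMC5/6 complex, was lower with 7 reads in tg and 42 in WT (0.315, 0.119 to 0.708). Trp53bp1, which steers breaks towards end joining, was past 2-fold lower with 3 reads in tg and 15 in WT, and its interval includes 1 (0.378, 0.0702 to 1.34).

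Some of these genes share their reads with a neighbour. Values identical to those of a neighbour within 100000 bp were found for 18 of the 99 genes (18.2%), against 16.2% of all genes in the table, among them Orc6 with Vps35, Orc3 with Rars2 and Rad1 with Brix1. In RefSeq, 30 of the 77 matched genes (39.0%) had a gene starting on the opposite strand and pointing away within 1000 bp upstream, against 22.9% of the genes in the table. Such pairs include Atm with Npat, Brca1 with Nbr1 and Mcm7 with Ap4m1. A probe between divergent genes cannot be assigned to either.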

How the data were processed

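H3K9ac ChIP-seq was read from 1 deposited table, whose columns carry the library codes of the labels. Per the submitters' processing notes, CASAVA 1.8.2, BWA, SAMtools and FastQC were used with mm10 (GRCm38); the placing of probes, the handling of duplicates and the program used for the table are unstated: not given in the sources used here. Values that the authors deposited are log2 means over a gene's probes, with the standard deviation of these log2 values. Taken out of the log, 100% of 1-probe values in tg and WT came out as whole reads (tolerance 0.01 read), where 0 reads stands as 0.9 read. Reads per probe were solved from mean and SD for genes with up to 4 probes (9492 genes), a step tested on simulated data. Intervals are exact conditional binomial (Clopper-Pearson, scipy 1.17.1, 95%); without molecular identifiers, reads need not be separate molecules. A count of 0 allows up to 3 reads (18.3 scaled in tg, 9.69 in WT). Named are genes past 2-fold, those whose interval excludes 1, core complex members, the 5 with the highest mean linear level and the most equal of each role with at least 20 reads per library. The genes, role lists and rules were chosen with earlier results of these data known. Rpa2 and Orc6 were chosen for their printed promoters after their values were seen, and so were Csf1r, Cx3cr1, Atrip, Mcmbp, Mre11a, Top1, Cdc6 and Parg for naming. Some genes of the set are not reported here.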

Additional observations from a re-analysis of the deposited data

How the results depend on the processing

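Of 31 recomputed counts and medians, 24 stayed close to the reported value (for counts, within 1.5 times) and 7 moved. With only genes at or above the median level (56 of the 99) the counts were 5 genes at least 2-fold higher and 3 lower, with 6 intervals above 1 and 3 below, since fewer genes enter. As shares, 8.93% and 5.36% were past 2-fold, against 10.2% and 10.8% of all genes at that level. The intervals lay above 1 for 10.7% and below 1 for 5.36%, against 11.9% and 14.2%. With 1 read added to both libraries, 4 genes were at least 2-fold lower (4.04%, against 12.7% of all genes). With only 1-probe genes 3 intervals lay below 1 (3.57%, against 11.8% of all such genes). Without the PARP family members other than Parp1 and Parp2 it was 2 (2.22%, against 12.7% of all genes). The median log2 ratio ranged from 0.22 (centred on all genes) to 0.33 (1 read added). Rescaling the totals to a median log2 ratio of 0 left 10 intervals above 1 (10.1%, against 11.6% of all genes with recovered reads). With it 7 lay below 1 (7.07%, against 13.7%). The intervals of Atm, Pold1, Rad9b and Rad52 then included 1, and that of Mcm9 fell below 1 (0.459 to 0.992). Orc4 without the probe it shares with Mbd5, an alternative chosen after seeing the data, had a ratio of 1.24, no longer apart from 1. By summed reads, Orc5 and Fancc were no longer past 2-fold. No paired analysis was possible because each genotype has 1 library, and for the same reason no replicate could be left out. Depth limits single genes: 5 of the 15 genes past 2-fold higher had fewer than 10 reads in both libraries.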
